A study of Mus musculus with 8 samples.

Results

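The genes described are 10 members of the NF-kappaB system, chosen by name: the 5 transcription factor subunits Nfkb1, Nfkb2, Rel, Rela and Relb, the inhibitors Nfkbia and Nfkbie, the ubiquitin-editing enzyme gene Tnfaip3, and Tnip1 and Tnip3, whose products bind it. The choice was made with earlier results of these data known. All 10 were found among the 45706 gene IDs of the RNA files, and all 10 were among the 16258 genes with enough counts to test. They were measured in LSK cells (lineage-negative, Sca1-positive, Kit-positive), the bone marrow gate that holds haematopoietic stem cells and multipotent progenitors, of C57BL/6 mice. RNA-seq and ATAC-seq (a transposase-based map of accessible DNA) each had 2 libraries labelled Hira KO, from mice with a conditional knockout of the histone chaperone gene Hira, and 2 labelled WT. The promoter driving the deletion, the ages and the number of mice per library are not given in the labels.

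NF-kappaB factors are dimers of subunits that share a DNA-binding domain; Rel, Rela and Relb also carry an activation domain, while Nfkb1 and Nfkb2 encode precursors that are cut to shorter DNA-binding forms. In resting cells the dimers are held by IkappaB proteins such as those of Nfkbia and Nfkbie, and receptors of the TNF, interleukin and Toll-like families release them through the IKK kinases. Released dimers switch on genes of defence and survival and also their own brakes, among them Nfkbia and Tnfaip3, so these brake genes are commonly read as a record of recent signalling. In haematopoietic stem cells the pathway is known for its part in survival and in responses to inflammation.

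Expected counts per RNA library came to 17.5 and 19.4 M in labelled Hira KO and to 16.6 and 19.8 M in labelled WT, and mitochondrially encoded genes took 40.8 to 53.1% of them. Hira itself stood at 24.4 and 23.3 CPM (counts per M counts of the scaled library) in labelled Hira KO and at 16.5 and 17.2 CPM in labelled WT, which is 0.50 on the log2 scale (SE 0.19; adjusted p = 0.180 by edgeR's quasi-likelihood test, n = 2 and 2). A knockout would have less, and the deposited files' own names carry the opposite genotype to the titles, so every direction below holds for the labels as titled. Counts over the whole gene can include exons outside the deleted part. By Ddx3y, a gene of the Y chromosome, the labelled WT libraries came from both sexes (906 counts in replicate 2, 1 in replicate 1, and 2 and 1 in labelled Hira KO). Labelled Hira KO replicate 2 stood apart in immediate-early genes, as given beside the results. Of the genes for the gate's own markers, Kit stood at 96.5 and 70.1 TPM (transcripts per M transcripts, scaled by gene length) in labelled Hira KO and at 81.9 and 79.3 TPM in labelled WT. Ly6a, which encodes Sca1, stood at 47.6 and 53.1 TPM in labelled Hira KO and at 22.4 and 15.2 TPM in labelled WT, 2.96-fold higher in labelled Hira KO and past the threshold (edgeR adjusted p = 0.0382). The titles number the replicates without tying them to mice, so the p-values measure library-to-library spread, part of which may be technical.

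The comparison asked which of the 10 genes differed between LSK cells labelled Hira KO and LSK cells labelled WT. Tnip3 was the only one past the threshold by edgeR's quasi-likelihood test (Benjamini-Hochberg adjusted p below 0.05 over all genes tested), 6.88-fold higher in labelled Hira KO. In bulk RNA a change in the number of cells of a type and a change in RNA per cell cannot be told apart. The same test called 1.32% of all genes tested higher and 0.480% lower, and it called none of the 10 lower. Nfkbia, Rel and Tnfaip3 had estimates of 2.75-fold to 6.70-fold that did not pass, and in each of these the 2 labelled Hira KO libraries differed at least 2.28-fold. The other 6 genes had log2 fold changes of -0.03 to 1.14. At an unadjusted p below 0.05 there were 4 of the 10 higher, against 12.2% of all genes, and 0 lower, against 10.6%. The median log2 fold change was 0.79 over the 10 genes and 0.01 over all genes tested, and 9 of the 10 lay above 0, against 50.9% of all genes. The median over the 10 was 0.38 without labelled Hira KO replicate 2, 1.24 without replicate 1 of that group, 0.52 without labelled WT replicate 2 and 1.21 without labelled WT replicate 1. It was 0.45 with the stricter low-count filter, which left Relb untested, and 0.29 and 0.30 by limma on TPM. In 6 of the 10 both labelled Hira KO libraries lay above both labelled WT libraries, as they did in 28.3% of all genes, and in none did they lie below, against 27.8%. Because the 10 were chosen with earlier results of these data known, these comparisons with all genes are not tests.

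**Figure D1:**
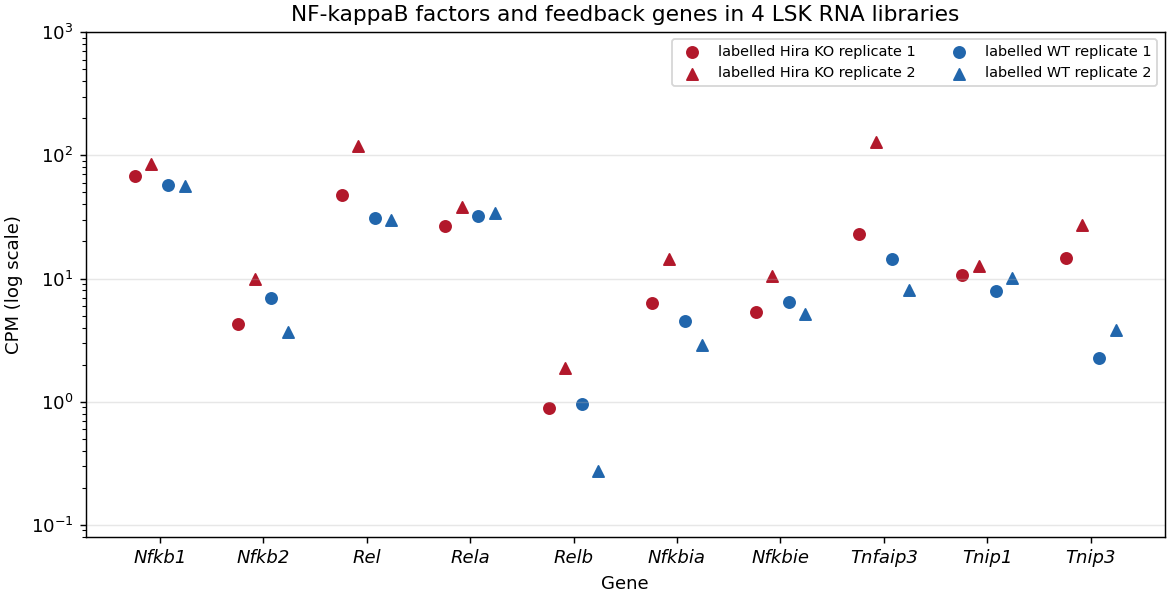
CPM on a log scale of the 10 genes in each of the 4 RNA libraries, labelled Hira KO in red and labelled WT in blue, with circles for replicate 1 and triangles for replicate 2. Tnip3 is well separated between the groups, while Tnfaip3 and Rel have 1 high library, labelled Hira KO replicate 2 (128 and 119 CPM).

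Among the subunits, Rel had the largest log2 fold change between the groups. It encodes c-Rel, the subunit best known from lymphocyte activation, and stood at 47.8 and 119 CPM in labelled Hira KO and at 31.2 and 29.6 CPM in labelled WT. The groups did not overlap, but the labelled Hira KO libraries differed 2.49-fold from each other and the labelled WT libraries hardly at all. The log2 fold change was 1.46 (SE 0.45, 95% interval 0.29 to 2.63, edgeR adjusted p = 0.155). Leaving out labelled Hira KO replicate 2 gave 0.65, a call (edgeR adjusted p = 0.0379), and leaving out replicate 1 of that group gave 1.95, also a call (edgeR adjusted p = 3.26e-05). When either labelled WT library was left out the adjusted p was 0.523 or higher.

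Nfkb1, which encodes the precursor of the most common DNA-binding partner of Rela, stood at 68.4 and 85.2 CPM in labelled Hira KO and at 57.4 and 56.7 CPM in labelled WT. The groups did not overlap, and the estimate on the log2 scale was 0.43 (SE 0.17, 95% interval 0.04 to 0.82, edgeR adjusted p = 0.184). It was 0.56 and a call without labelled Hira KO replicate 1 (edgeR adjusted p = 0.0157). Rela, the main activating subunit, stood at 26.5 and 38.3 CPM in labelled Hira KO and at 32.1 and 34.1 CPM in labelled WT. The labelled WT values lay between those of labelled Hira KO, and the log2 fold change was -0.03 (95% interval -0.54 to 0.48, that is 0.688-fold to 1.40-fold; edgeR adjusted p = 0.953). The subunits of the slower, non-canonical branch were scarce. Nfkb2 stood at 4.30 and 10 CPM in labelled Hira KO and at 6.93 and 3.67 CPM in labelled WT, and its groups overlapped. Relb had 17 and 31 counts in labelled Hira KO and 18 and 5 in labelled WT. The labelled WT libraries of Relb lay far apart, and the 95% interval of its log2 fold change ran from -0.84 to 3.13. Nfkb2 overlaps the genes Psd and 4833438C02Rik, Nfkb1 the noncoding gene Gm46827 and Tnip1 the pseudogene Gm12230, and the labels and files do not say that strand was kept, so reads of overlapping genes could be mixed.

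On the length-scaled TPM level, which allows genes to be ranked, Nfkb1 led the subunits in all 4 libraries, with 34.2 and 29.1 TPM in labelled Hira KO and 29.0 and 22.7 TPM in labelled WT. It made up 58.6% and 46.0% of the summed TPM of the 5 subunits in labelled Hira KO and 52.1% and 54.1% in labelled WT. Rela was next in labelled WT, with shares of 30.2% and 32.5%, and held 23.0% and 22.8% in labelled Hira KO. The share of Rel was 14.3% and 24.5% in labelled Hira KO and 10.1% and 9.71% in labelled WT. The groups did not overlap in the shares of Rela and Rel, but no test was run on them. In CPM 28.3% of all genes tested were higher in labelled Hira KO without overlap and 27.8% lower. The shares are parts of a common sum, and in TPM the groups of Rela itself overlapped. It stood at 13.4 and 14.4 TPM in labelled Hira KO and at 16.8 and 13.6 TPM in labelled WT. The shares of Nfkb2 were 3.29% and 5.27% in labelled Hira KO and 5.75% and 3.08% in labelled WT, and those of Relb 0.753% and 1.36% in labelled Hira KO and 1.80% and 0.668% in labelled WT.

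The inhibitor gene Nfkbia, which encodes IkappaB-alpha, the fast-turning brake of the canonical branch, stood at 6.37 and 14.5 CPM in labelled Hira KO and at 4.50 and 2.90 CPM in labelled WT. Both labelled Hira KO libraries lay above both labelled WT libraries, though replicate 1 of each group came close. The log2 fold change was 1.49 (SE 0.46, 95% interval 0.41 to 2.58, edgeR adjusted p = 0.125). It was 0.78 when labelled Hira KO replicate 2 was left out, and 1.95 and a call when replicate 1 was (edgeR adjusted p = 0.00444). Nfkbie, which encodes IkappaB-epsilon, stood at 5.34 and 10.4 CPM in labelled Hira KO and at 6.46 and 5.14 CPM in labelled WT. Its groups overlapped and the estimate, a log2 fold change of 0.44 (SE 0.39), turned to -0.13 when labelled Hira KO replicate 2 was left out.

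Tnfaip3, whose product edits ubiquitin chains and so ends signalling to IKK, had the widest spread of the 10 genes. It stood at 23.1 and 128 CPM in labelled Hira KO and at 14.3 and 8.10 CPM in labelled WT. The groups did not overlap, but 1 library carried most of the difference: labelled Hira KO replicate 2 was 5.52-fold above replicate 1, a ratio reached by 1.75% of all genes tested. The log2 fold change was 2.74 with a 95% interval of -0.63 to 6.11 and an edgeR adjusted p of 0.276, and it was 1.03 without that library. Without replicate 1 of that group it was 3.49 and a call (edgeR adjusted p = 0.0113). Tnip1, a widely expressed ABIN protein that links the Tnfaip3 product to ubiquitin chains, stood at 10.6 and 12.7 CPM in labelled Hira KO and at 7.94 and 10.1 CPM in labelled WT. The groups were close without overlapping, and the log2 fold change was 0.37 (95% interval -0.25 to 1.0, edgeR adjusted p = 0.449).

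**Figure D2:**
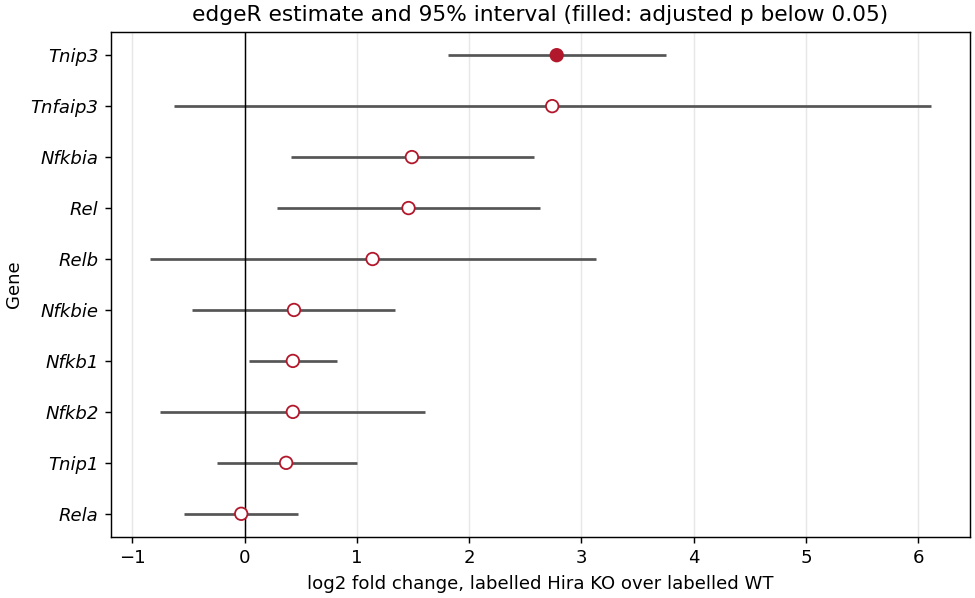
edgeR log2 fold changes of the 10 genes, labelled Hira KO over labelled WT, with 95% intervals, where a filled point has an adjusted p below 0.05 over all genes tested. The interval of Tnip3 runs from 1.81 to 3.75, while that of Tnfaip3, with nearly the same estimate, runs from -0.63 to 6.11.

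Tnip3, the inducible ABIN family member, was the gene that rose. It stood at 14.7 and 27.3 CPM in labelled Hira KO (284 and 455 counts) and at 2.28 and 3.83 CPM in labelled WT (43 and 70 counts). The lowest labelled Hira KO library was well above the highest labelled WT library, and the replicates of each group differed less than the groups did. The log2 fold change was 2.78 (SE 0.41, 95% interval 1.81 to 3.75, edgeR adjusted p = 0.0347, n = 2 and 2). On the TPM level Tnip3 stood at 5.25 and 7.25 in labelled Hira KO and at 0.840 and 1.08 in labelled WT, which placed it among the 2 lowest of the 10 genes in each labelled WT library and at the sixth or the seventh place in labelled Hira KO. Leaving out 1 library at a time kept the estimate between 2.26 and 3.19. The call was lost without labelled WT replicate 1 (edgeR adjusted p = 0.341) and without labelled WT replicate 2 (edgeR adjusted p = 0.214), where edgeR called only 0.0170% and 0.00571% of all genes higher. Other settings gave 1 to 3 of the 10 higher and none lower with all 4 libraries, beside shares of all genes that also moved. DESeq2 called Tnip3, Rel and Nfkbia, with 4.71% of all genes higher and 3.07% lower. Without a low-count filter edgeR called the same 3, with 4.06% of all genes higher and 3.42% lower. On the TPM scale limma called Tnip3 and Tnfaip3 with either pseudocount, with 2.11% higher and 1.25% lower at a pseudocount of 1 and 2.01% higher and 1.18% lower at 0.1. Tnip3 alone was called by edgeR with relative log expression factors (1.29% higher, 0.504% lower), with a stricter filter (2.38% higher, 0.980% lower) and without mitochondrially encoded genes (1.32% higher, 0.474% lower). The replicate block likewise gave Tnip3 alone, with 2.26% of all genes higher and 1.04% lower. Leaving out labelled Hira KO replicate 1 gave 5 of the 10, with 9.45% of all genes higher and 10.8% lower, and leaving out replicate 2 gave Rel and Tnip3, with 3.89% higher and 3.07% lower. The runs without labelled WT replicate 1 or 2 called 0.00567% and 0.00571% of all genes lower.

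**Figure D3:**
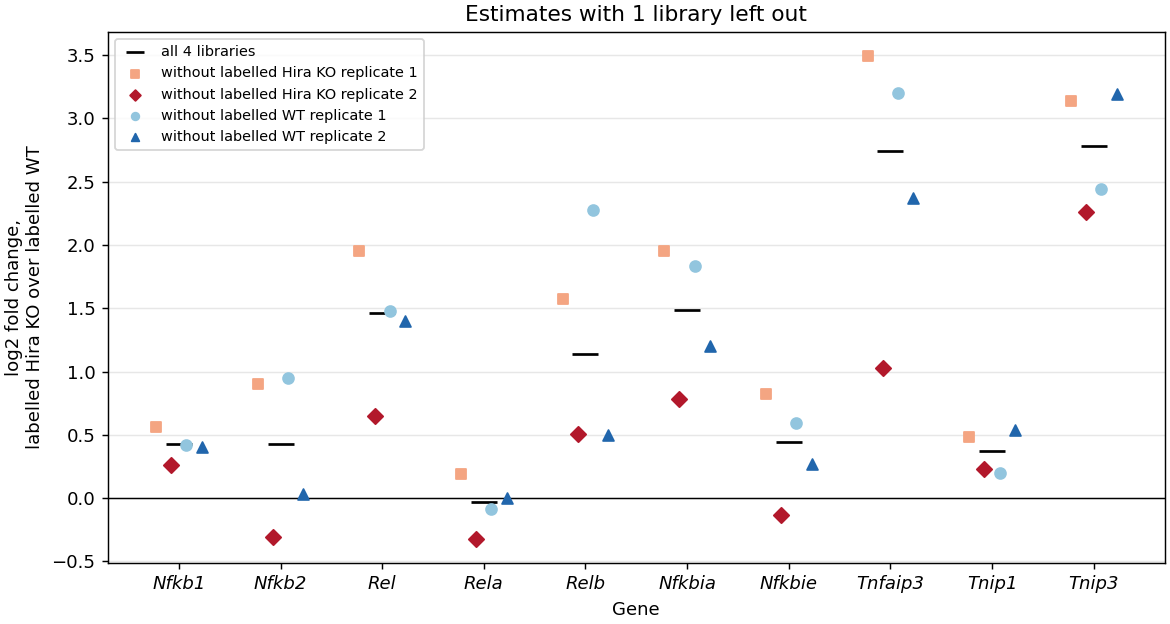
log2 fold changes of the 10 genes, labelled Hira KO over labelled WT, with all 4 libraries (black bars) and with each library left out in turn (coloured points). Tnip3 keeps an estimate of at least 2.26, while Tnfaip3 ranges from 1.03 to 3.49 and Nfkb2 and Nfkbie cross 0 without labelled Hira KO replicate 2.

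The chromatin around Tnip3 also differed between the peak lists. Of 9 merged regions within 10 kb of the gene (chromosome 6, 65590398 to 65634040, GRCm38), 5 were called in both labelled Hira KO lists and in neither labelled WT list, and none the other way round. Such labelled Hira KO regions made up 5.64% of all 112479 merged regions, and regions called in the labelled WT pair alone made up 2.77%. Of tested genes with a position 22.5% had at least 1 labelled Hira KO region within 10 kb, 17.0% had at least 1 labelled WT region, and 0.470% had 5 or more labelled Hira KO regions, a share not adjusted for gene length. The lists held 92839 and 73715 peaks in labelled Hira KO and 79565 and 63422 in labelled WT, with no read totals, so a region missing from a list may be below its depth.

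One of these 5 regions, at 65590144 to 65590448, covers the annotated start of Tnip3. Its fold enrichment over the caller's background, the authors' value, was 7.23 and 6.18 in labelled Hira KO, at the 54.5th and 37.4th percentile of those lists. Of 32851 promoter windows in the RefSeq table, 0.721% touched a region found in the labelled Hira KO pair alone, 0.131% one found in the labelled WT pair alone, and 38.8% one found in all 4 lists. The other 4 such regions lay inside the gene, from 6181 to 24202 bases past the start, with fold enrichments of 4.66 to 5.83. A region 3724 to 4222 bases past the start was called in all 4 lists, with 17.0 and 20.2 in labelled Hira KO and 6.54 and 10.2 in labelled WT. An upstream region, 65582901 to 65583497, also called in all 4, had 17.5 and 21.3 in labelled Hira KO and 38.1 and 28.6 in labelled WT. These enrichments were not tested between lists.

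**Figure D4:**
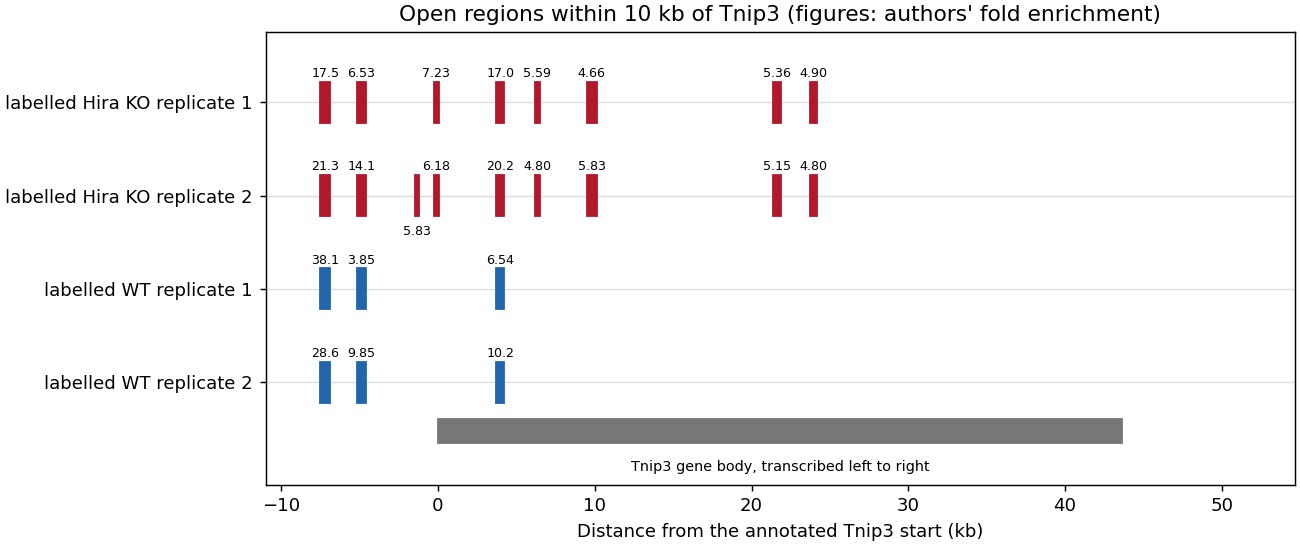
Merged ATAC regions within 10 kb of Tnip3 by distance from its annotated start in kb, drawn in the row of each library that called them with the authors' fold enrichment as a number. The labelled Hira KO lists hold 8 and 9 regions, one of them at the start, and the labelled WT lists 3 each, with none at the start.

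Promoter sequences of 8 of the 10 genes were in the RefSeq table (GRCm38.p6), in 11 windows of 250 bases before to 50 after an annotated start; Nfkb1 and Relb were not matched. The 4 windows printed belong to the genes with the largest log2 fold changes among those 8, and each was searched for the kappaB consensus, the site that NF-kappaB dimers are known to bind. Capitals mark matches to the consensus, which has 10 bases: 3 G, 1 purine, 2 of any base, 2 pyrimidines and 2 C, on either strand.
Tnip3, chr6:65590148-65590447, plus strand: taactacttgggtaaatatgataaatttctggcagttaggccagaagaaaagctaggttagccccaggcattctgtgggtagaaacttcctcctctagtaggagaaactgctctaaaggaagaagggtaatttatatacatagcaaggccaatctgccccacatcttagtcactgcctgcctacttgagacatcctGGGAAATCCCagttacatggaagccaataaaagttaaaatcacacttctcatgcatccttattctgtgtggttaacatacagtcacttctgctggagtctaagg
Nfkbia, chr12:55492598-55492897, minus strand: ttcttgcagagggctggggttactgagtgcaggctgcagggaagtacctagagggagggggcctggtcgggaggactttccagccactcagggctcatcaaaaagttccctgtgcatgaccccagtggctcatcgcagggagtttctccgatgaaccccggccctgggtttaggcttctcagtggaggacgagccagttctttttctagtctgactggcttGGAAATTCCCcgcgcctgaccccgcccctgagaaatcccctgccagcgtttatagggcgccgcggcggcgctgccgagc
Tnfaip3, chr10:19015361-19015660, minus strand: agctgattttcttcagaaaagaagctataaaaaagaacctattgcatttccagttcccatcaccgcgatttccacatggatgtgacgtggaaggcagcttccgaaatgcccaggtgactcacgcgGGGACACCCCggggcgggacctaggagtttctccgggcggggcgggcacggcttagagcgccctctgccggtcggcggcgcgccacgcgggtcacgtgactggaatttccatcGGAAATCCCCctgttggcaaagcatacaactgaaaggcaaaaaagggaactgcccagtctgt
Rel, chr11:23770920-23771219, minus strand: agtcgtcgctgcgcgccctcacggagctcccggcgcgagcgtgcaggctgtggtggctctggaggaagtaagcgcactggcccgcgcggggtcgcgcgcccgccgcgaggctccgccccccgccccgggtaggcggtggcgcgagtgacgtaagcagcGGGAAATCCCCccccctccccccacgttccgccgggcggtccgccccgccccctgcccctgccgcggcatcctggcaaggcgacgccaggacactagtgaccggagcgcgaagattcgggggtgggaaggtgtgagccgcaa
The Tnip3 window, whose start region was found in the labelled Hira KO pair alone, held 1 match that begins 54 bases before the start. The Nfkbia window held 1 match, 29 bases before the start. The Tnfaip3 window held 2, at 125 and 12 bases before the start, and the Rel window 2 that overlap each other. Among all 11 windows 9 held a match, overlapping ones counted separately, against 8.46% of all 32851 windows. The windows without one were that of Rela and the downstream window of Tnfaip3. Nfkb2 has windows that overlap, at 46305445 to 46305744 and at 46305680 to 46305979, and these share a match. The genes were chosen by name as parts of this pathway, so the comparison with all windows is not a test. A looser form, GGGNNNNNCC on either strand, was in all 11 windows and in 50.8% of all windows. A match describes the letters alone and does not show that a factor was bound.

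At most other starts a region was found in both groups. The regions at the starts of Nfkbia, Tnfaip3, Rel, Rela, Nfkbie and Nfkb2 were called in all 4 lists, except that the region at the downstream start of Tnfaip3 was called in labelled Hira KO replicate 1 (5.36) and labelled WT replicate 1 (3.85) alone. For Nfkbia the fold enrichment was 65.7 and 38.1 in labelled Hira KO and 61.2 and 33.2 in labelled WT. For the upstream start of Tnfaip3 it was 69.0 and 48 in labelled Hira KO and 61.4 and 47.9 in labelled WT, and for Rel 46.9 and 34.3 in labelled Hira KO and 35.6 and 20.7 in labelled WT. Replicate 1 had the higher value in both groups at these 3 starts. At Tnip1 the annotated start was called in labelled Hira KO replicate 1 alone, with 6.76, while its strongest region (chromosome 11, 54955562 to 54956442), inside the gene, had 52.9 and 47.0 in labelled Hira KO and 57.5 and 41.4 in labelled WT. Over all 10 genes 115 regions lay within 10 kb, of which 45 were called in all 4 lists, 39.1% against 40.7% of all regions. The labelled Hira KO pair alone had 9 of the 115, or 7.83%, and the labelled WT pair alone had 2, or 1.74%. Without Tnip3 these were 4 and 2 of 106, or 3.77% and 1.89%. The 4 lay at Nfkb1 (chromosome 3, 135686451 to 135686905, with 7.69 and 6.52 in labelled Hira KO), Rel (chromosome 11, 23740939 to 23741274, with 4.66 and 4.12 in labelled Hira KO), Relb (chromosome 7, 19615217 to 19615518, with 3.96 and 5.15 in labelled Hira KO) and Nfkbia (chromosome 12, 55486644 to 55487557, with 7.69 and 3.43 in labelled Hira KO). The 2 lay at Nfkb1 (chromosome 3, 135692959 to 135693397, with 4.62 and 7.88 in labelled WT) and Tnfaip3 (chromosome 10, 19017161 to 19017403, with 5.0 and 3.61 in labelled WT). Regions called in all 4 lists were also ranked by the lowest of their 4 values. The first of Nfkb1, at 135696111 to 135696946 and outside the gene, had 30.8 and 38.1 in labelled Hira KO and 61.4 and 58.4 in labelled WT. The first of Relb, at 19628006 to 19629850, had 66.0 and 74.5 in labelled Hira KO and 55.6 and 48.9 in labelled WT. At these 2 regions the groups did not overlap, with lower values in labelled Hira KO at Nfkb1 and higher ones at Relb. This was not tested, and no share of all regions without overlap was set beside it. A further Nfkb1 region called in all 4 lists, at 135594203 to 135595155, went the other way. It had 13.8 and 15.1 in labelled Hira KO and 7.12 and 8.86 in labelled WT. Another Nfkb1 region, at 135690335 to 135692125, had 40.1 and 15.4 in labelled Hira KO and 25.8 and 18.1 in labelled WT, with overlap.

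The rest of the pathway was read from 7 lists of 107 genes in all, of which 97 were tested. Past edgeR's threshold were 3 higher and 1 lower, where 1.32% of all genes tested were called higher and 0.480% lower, and the median log2 fold change was 0.28. No member of the lists of other IkappaB proteins (5 tested), IKK and upstream kinases (12), adaptors and ubiquitin ligases (21) or other negative regulators (12) passed edgeR's threshold. At an unadjusted p below 0.05 these lists held 1, 2, 3 and 2 genes higher in that order, and 1 IkappaB gene, Nfkbib, lower, where 12.2% of all genes tested were higher and 10.6% lower. DESeq2 called 14 genes of the 7 lists together in either direction, where it called 4.71% of all genes higher and 3.07% lower.

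Receptors held 2 of the calls among 16 tested, both higher. The interleukin receptor gene Il1r1 stood at 62.0 and 64.1 CPM in labelled Hira KO and at 29.1 and 32.6 CPM in labelled WT (log2 fold change 1.03, SE 0.16, edgeR adjusted p = 0.0370). Tlr7, a sensor of single-stranded RNA, stood at 23.7 and 20.7 CPM in labelled Hira KO and at 5.93 and 7.77 CPM in labelled WT (log2 fold change 1.70, SE 0.25, edgeR adjusted p = 0.0337). In both genes the replicates of each group lay close together and the groups far apart. The interleukin receptor gene Il18r1, at -0.76 on the log2 scale, did not pass (edgeR adjusted p = 0.0877). Of 11 ligand genes 6 were tested, and the cytokine gene Il18 passed. It had 90 counts over the labelled Hira KO libraries and 2 over the labelled WT libraries, a ratio of 46.5 with an exact 95% interval of 12.5 to 390 that covers counting error only (edgeR adjusted p = 0.0347). Tnf stood at 4.25 and 6.61 CPM in labelled Hira KO and at 3.65 and 2.57 CPM in labelled WT (edgeR adjusted p = 0.282), and Ltb was at 0.86 on the log2 scale (edgeR adjusted p = 0.467).

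Of 30 known target genes 25 were tested, with a median log2 fold change of 0.21. The cyclin gene Ccnd1 was the 1 call, lower, at 15.6 and 11.2 CPM in labelled Hira KO and 34.4 and 30.1 CPM in labelled WT (log2 fold change -1.26, SE 0.23, edgeR adjusted p = 0.0483). Tnfaip2 was at -1.55 on the log2 scale (edgeR adjusted p = 0.0508) and the chemokine gene Ccl4 at 4.0 (edgeR adjusted p = 0.0685), with 7.05 and 27.5 CPM in labelled Hira KO and 1.32 and 0.821 CPM in labelled WT. The targets thus lay on both sides of 0, 16 above and 9 below, where 50.9% of all genes tested lay above. At an unadjusted edgeR p below 0.05, 8 targets were higher and 3 lower, where 12.2% of all genes were higher and 10.6% lower. The atypical inhibitor gene Nfkbiz, which encodes a nuclear IkappaB protein, stood at 31.8 and 127 CPM in labelled Hira KO and at 12.5 and 9.68 CPM in labelled WT (log2 fold change 2.84, SE 0.80, edgeR adjusted p = 0.168), with the same high library as Tnfaip3. Nfkbid, another nuclear one, was at 1.52 and Nfkbib at -0.63 on the log2 scale (edgeR adjusted p = 0.303 and 0.204). Among kinases the smallest p-values were those of Map3k8 (log2 fold change 1.68), Ikbke (0.65) and Map3k3 (0.89), among adaptors those of Birc2 (0.84, edgeR adjusted p = 0.0585), Traf5 (0.93) and Traf1 (1.42), and among negative regulators those of Pdlim2 (0.78), Usp18 (1.08) and Zc3h12a (1.42).

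**Figure D5:**
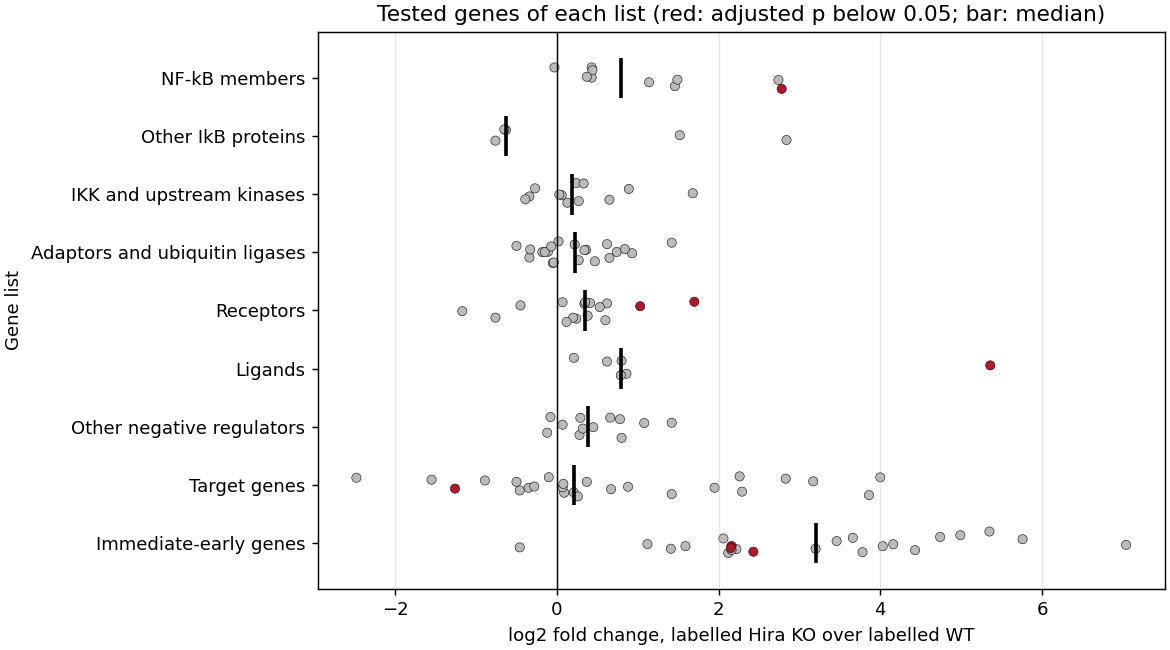
log2 fold changes, labelled Hira KO over labelled WT, of the tested genes of the 10 (top row), of 7 pathway lists and of the immediate-early list, with red points past edgeR's threshold and black bars at the medians. The immediate-early genes have the highest median, 3.20, and the targets spread from -2.48 to 4.0.

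Immediate-early genes, which respond within minutes to signals and to cell handling, were highest in the same library as Tnfaip3, Rel and Nfkbia. Of 24 such genes 23 were tested, 3 passed higher and none lower, and the median log2 fold change was 3.20. Ier2, Ier5 and Ppp1r15a passed, with log2 fold changes of 2.43, 2.16 and 2.15. At the unadjusted threshold 14 were higher and 1 was lower, where 12.2% of all genes were higher and 10.6% lower. Their summed level was 1196 and 3125 TPM in labelled Hira KO and 596 and 360 TPM in labelled WT. The median log2 ratio of labelled Hira KO replicate 2 over replicate 1 was 2.02 in these genes, 1.02 in the 10 NF-kappaB genes and 0.00 in all genes tested. Tnip3 differed 1.86-fold between those libraries, Tnfaip3 5.52-fold and Nfkb1 1.25-fold. The part of immediate-early activation in these differences was not tested.

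Markers of other cells were present in both groups. The 13 monocyte, macrophage and neutrophil markers summed to 2541 and 1241 TPM in labelled Hira KO and 5306 and 2722 TPM in labelled WT, led by the granule gene Mpo, which progenitors also express (964 and 247 TPM in labelled Hira KO and 2652 and 1309 TPM in labelled WT), and S100a8; 1 of them passed, lower. The 13 B cell and plasma cell markers summed to 347 and 208 TPM in labelled Hira KO and 251 and 145 TPM in labelled WT. The immunoglobulin-joining gene Jchain was the 1 call among them, at 202 and 98.2 TPM in labelled Hira KO and 14.4 and 6.08 TPM in labelled WT, and Xbp1 stood at 37.5 and 43.1 TPM in labelled Hira KO and 50.1 and 26.3 TPM in labelled WT. The 10 T and NK cell markers, led by Cd4 and Cd3d, with 1 past the threshold, higher, summed to 8.61 and 12.8 TPM in labelled Hira KO and 12.7 and 9.34 TPM in labelled WT. Erythroid and megakaryocyte markers, led by Pf4 and Klf1, summed to 86.3 and 45.2 TPM in labelled Hira KO and 149 and 75.7 TPM in labelled WT. Stromal and endothelial markers summed to 53.7 and 44.3 TPM in labelled Hira KO and 68.8 and 42.2 TPM in labelled WT. The most abundant of these, Pecam1 and Emcn, had log2 fold changes of 0.32 and 1.07 and did not pass. Cdh5 and Stab2 passed, lower, at -2.94 and -2.42 on the log2 scale. Of the 8 stromal and endothelial markers tested, 2 lay above 0 and 6 below, with a median of -1.29. No marker of these lists was at 0 in all 4 libraries. The 10 LSK markers summed to 652 and 620 TPM in labelled Hira KO and 355 and 310 TPM in labelled WT, with 5 past the threshold, all higher, Ly6a among them. The most abundant were Cd34, at 104 and 123 TPM in labelled Hira KO and 77.5 and 70.6 TPM in labelled WT, and Kit. The part of these cell types in the results was not tested.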

How the data were processed

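The members and gene lists were chosen with earlier results of these data known. Sample titles gave the group and the replicate number. Each RNA file lists RSEM estimates for every gene, per the file headers: the deposited expected counts carry no normalization, and the deposited TPM values are scaled by gene length and to a fixed total. Every ATAC library has its own peak list, whose deposited columns are a fold enrichment (a ratio over background) and -log10 values of p and q. Libraries were made with NuGEN and Nextera XT kits, per the labels' protocols. The submitters' processing notes name RSEM 1.3.0, STAR 2.5.3a, MACS2 2.1.1 and GRCm38 without a role, and no source used here states how the transposase offset was handled.

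Rounded expected counts went into edgeR 4.0.16 (R 4.3.3; TMM, filterByExpr, robust quasi-likelihood test, genotype only), over 16258 genes, with Benjamini-Hochberg adjustment. Symbols were matched for 45143 of 45706 gene IDs. Depth was 16.6 to 19.8 M counts per library. The test was also run on simulated counts for labelled Hira KO over labelled WT (15742 genes), with 50 genes at each size. It found 2% of the genes set to 1.5-fold, 14% at 2-fold, 88% at 4-fold and 96% at 8-fold. In all it called 112 genes, and 12 of these were among the 15542 left unchanged. The changed genes were drawn from those of higher CPM and no library was set apart. These rates therefore do not cover Relb or genes with 1 outlying library. Replicates differed by more than sampling noise (chi-square per gene 66.2 in labelled Hira KO and 49.1 in labelled WT). Peaks overlapping by at least 1 bp were merged, without the mitochondrial genome; a region counted for a gene within 10 kb of its RefSeq body. All 10 members were named, every list gene past the threshold, the 3 with the smallest p of each pathway list and of the immediate-early list, and of the cell lists the most abundant genes. Alternatives were DESeq2 1.42.0, limma 3.58.1 on TPM, other filters, factors and distances, and each library left out.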

Additional observations from a re-analysis of the deposited data

How the results depend on the processing

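The count of 1 member higher (Tnip3) was the same with relative log expression factors, the stricter filter, mitochondrial genes left out and the replicate block. It was 3 with no low-count filter (Tnip3, Rel, Nfkbia; 4.06% of all genes called higher), 3 by DESeq2, and 2 (Tnip3, Tnfaip3) by limma on log2(TPM + 1) and on log2(TPM + 0.1), where 2.11% and 2.01% of all genes were called higher. With 1 library left out it ran from 0 without either labelled WT library to 5 without labelled Hira KO replicate 1 (9.45% of all genes called higher), with 2 without labelled Hira KO replicate 2 (3.89%); the lone library left in a group is assumed to vary like the others. No alternative called a member lower. The count of called pathway list genes, 4, became 22 with no filter, 14 by DESeq2, 8 and 8 on the TPM scales, and 0 to 31 with 1 library left out. Regions called in the labelled Hira KO pair alone numbered 9 of 115 within 10 kb and 17 of 224 within 50 kb. With 1 library left out, Rela ran from -0.32 to 0.19 (0.19 when labelled Hira KO replicate 1 and 0.00 when labelled WT replicate 2 was left out), Nfkb2 from -0.31 to 0.95 and Nfkbie from -0.13 to 0.82, both lowest when labelled Hira KO replicate 2 was left out. The cause was not tested beyond the library left out. With the replicate block the log2 fold change of Tnip3 was 2.76 (edgeR adjusted p = 0.00308), the members higher numbered 1 and all genes called higher made up 2.26%. Same-numbered libraries deviated from their group means with a correlation of 0.022, and the main fit did not pair them. Some library traits did go with the number. Mitochondrially encoded genes took 42.9% of counts in labelled Hira KO replicate 1 and 40.8% in labelled WT replicate 1. In replicate 2 they took 53.1% and 51.7%. The TMM factors were 1.11 and 1.14 in replicate 1 and 0.861 and 0.922 in replicate 2, in the same order. Whether the number marks a shared source of spread was not tested. Counts were low for Relb (5 to 31 per library) and for Il18 in labelled WT (2 in all), and the peak lists carry no depth.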

Other observations

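Genes within 100 kb of the 10 NF-kappaB genes numbered 46 among those tested. Where edgeR called 1.32% of all genes tested higher and 0.480% lower, 1 of the 46 passed its threshold, higher. This was Ltbp3, which encodes a protein that binds latent TGF-beta, 92766 bases from Rela. It stood at 40.1 and 24.1 CPM in labelled Hira KO and at 8.89 and 7.77 CPM in labelled WT (log2 fold change 1.95, edgeR adjusted p = 0.0341), whereas Rela itself had a log2 fold change of -0.03. Ndnf, the tested gene within 100 kb of Tnip3, lies 37571 bases away and stood at 1.19 and 1.92 CPM in labelled Hira KO and at 0.423 and 1.20 CPM in labelled WT (edgeR adjusted p = 0.497).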
